A study of Mus musculus with 6 samples.

Results

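Smox, Amd1, Odc1, Sat1, Srm, Sms, Oaz1, Oaz2, Azin1 and Paox make, break down and regulate the polyamines. These 10 genes were taken from the deposited matrix by symbol, and all 10 symbols matched 1 row each of its 23314 rows. The set was chosen by the group means of Smox and Amd1 in these same libraries, which had already been seen to stand lower in the knockout. The levels of both are therefore given as a description without a test. RNA-seq was done on the quadriceps, the large thigh muscle, of mice aged 2 months. The MyoCre group (genotype Myogenin-Cre/+) held 3 libraries, and the K15SKO group (genotype Myogenin-Cre/+;K15F/F) held 3 libraries with the same Cre and a floxed gene abbreviated K15, which the series title names as Klf15. The Cre is driven by Myogenin, a gene of differentiating muscle cells, so cells of the quadriceps that do not use that promoter are not targeted. The series' own text speaks of n = 4, and 3 libraries of each group were analysed here. The labels do not say whether a library is 1 animal, so a p-value here measures only how the 6 libraries scatter, which may be technical.

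The polyamines putrescine, spermidine and spermine are small, positively charged amines that bind RNA, DNA and ion channels and are needed for growth and translation. Putrescine is made from ornithine by ornithine decarboxylase (Odc1), and it is extended to spermidine by Srm and to spermine by Sms with aminopropyl groups from S-adenosylmethionine that Amd1 has decarboxylated. Spermine is taken back to spermidine by the oxidase Smox, or acetylated by Sat1 and then oxidised by Paox. The antizymes Oaz1 and Oaz2 bind ornithine decarboxylase and send it to the proteasome, and the antizyme inhibitor Azin1 sequesters the antizymes. In skeletal muscle, Smox and Amd1 have been studied as genes whose transcripts follow fibre size and androgen or innervation.

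Values are FPKM, a read density corrected for the length of the transcript and the size of the library, so they can be set against each other between genes. Read totals were not used here, and the steps between values under 0.1 FPKM put the depth of the libraries at 0.78 to 1.57 times that of MyoCre 1. Klf15, a zinc-finger transcription factor, was at 35.2, 28.4 and 30.5 FPKM in MyoCre 1 to 3, against 2.22, 21.7 and 5.32 FPKM in K15SKO 1 to 3. All K15SKO libraries were below all MyoCre libraries (log2 difference −2.06, SE 0.66, limma adjusted p = 0.273). K15SKO 2 stood at 69.3% of the MyoCre mean, against 7.08% and 17.0% in the others. The 8 muscle fibre markers were above 0 in all 6 libraries. They summed to 33177 to 38879 FPKM in MyoCre, against 25862, 25616 and 39587 FPKM in K15SKO 1 to 3, and 2 of the 8, Des and Myh2, were higher in all 3 K15SKO libraries. The 6 slow fibre markers summed to 17.0 to 227 FPKM in MyoCre and to 515, 101 and 895 FPKM in K15SKO 1 to 3. The 4 endothelial markers summed to 30.2 to 37.0 FPKM and to 20.8, 24.1 and 44.4 FPKM. Other markers differed among the K15SKO libraries too. The 8 macrophage markers summed to 312 and 178 FPKM in K15SKO 1 and 2, against 34.4 FPKM in K15SKO 3 and 37.6 to 45.0 FPKM in MyoCre. The 8 liver markers summed to 4853 FPKM in K15SKO 2, to 64.2 FPKM in K15SKO 1, and to 13.6 to 25.7 FPKM in the other 4 libraries. For 7 of the 8, all K15SKO libraries were above all MyoCre libraries, beside 13.4% of all genes tested. Alb was at 4.36 FPKM in K15SKO 3, against 0.298 to 1.13 FPKM in MyoCre. The exception was Trf, at 12.2 to 25.0 FPKM in MyoCre and 4.89 FPKM in K15SKO 3. In bulk tissue, fewer cells of a type and less RNA per cell cannot be told apart.

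The promoters of Smox, Amd1 and Odc1 are shown because these are the 3 members whose K15SKO libraries all stood below all MyoCre libraries. Each stretch lies within the 250 bases before the RefSeq transcription start on GRCm38.p6, on the gene's own strand, and leaves out bases that a GENCODE M21 exon of the gene covers. For Amd1 that is the whole window, and for Smox and Odc1, which have other annotated starts, it is 110 and 171 bases of it. The Smox stretch lies within the first intron of 1 of its transcripts. Capitals mark GC boxes (GGGCGG) and CACCC boxes (CACCC) on either strand, motifs that Krüppel-like factors as a family are known to bind, and matches of both kinds can overlap.
Smox, chr2:131491654-131491763, plus strand: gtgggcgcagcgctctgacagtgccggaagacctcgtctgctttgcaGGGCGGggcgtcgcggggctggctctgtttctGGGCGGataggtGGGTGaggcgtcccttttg
Amd1, chr10:40302189-40302438, minus strand: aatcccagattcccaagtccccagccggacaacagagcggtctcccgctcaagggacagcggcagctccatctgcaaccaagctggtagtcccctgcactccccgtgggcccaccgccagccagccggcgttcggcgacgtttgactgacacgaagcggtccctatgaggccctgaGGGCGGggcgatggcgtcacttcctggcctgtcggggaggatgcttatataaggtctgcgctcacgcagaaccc
Odc1, chr12:17544623-17544793, plus strand: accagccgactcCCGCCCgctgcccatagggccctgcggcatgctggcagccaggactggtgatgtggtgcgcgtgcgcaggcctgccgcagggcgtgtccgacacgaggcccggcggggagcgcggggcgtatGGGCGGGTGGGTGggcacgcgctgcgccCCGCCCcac

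The stretches shown hold 2 GC boxes and 1 CACCC box for Smox, 3 and 2 for Odc1, and 1 and 0 for Amd1. In the whole 250 bases the Smox promoter held 6 GC boxes and 3 CACCC boxes, Odc1 4 and 2, and Amd1 1 and 0. The GC content of the 250 bases was 68%, 80% and 64.4% for Smox, Odc1 and Amd1, against a median of 52.4% over 32851 promoters. RefSeq promoter windows of 300 bases, which include 50 bases after the start, were matched for 8 of the 10 genes. Sms and Paox had more than 1 window, and a gene was counted if any of its windows held the motif. The shares over all promoters are per window, so the gene counts are favoured beside them. The TATA box and E-box of Sms lay in only 1 of its windows. A GC box lay in a window of 7 of the 8 and in 35.7% of all promoters. A CACCC box lay in a window of 6 of the 8 (all but Amd1 and Paox) and in 57.5% of all promoters. A TATA box, spelled TATANA and searched on both strands, lay in a window of Amd1, Oaz1 and Sms and in 24.7% of all promoters. The E-box CACGTG, the site of MYC-family factors, was found for 1 of the 8, Sms, and in 7.15% of all promoters. A match is a description of the letters and not evidence of binding.

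Part of this family cannot be counted cleanly, because near-identical copies share sequence. In GENCODE M21 transcripts, 87.6% of the 50-base stretches of Amd1 also occurred in another gene, and 86.1% occurred in Amd2, a second S-adenosylmethionine decarboxylase gene with a span of 3218 bases against 14729 for Amd1. The Amd1 and Amd2 transcripts were 99.1% identical over 3218 aligned bases. Their open reading frames, 1005 bases each, differed at 1 base, G796C, with the base of Amd1 first and positions counted from the A of the start codon. The stretch from 737 to 796 of each frame is shown for that difference, which is in capitals.
Amd1: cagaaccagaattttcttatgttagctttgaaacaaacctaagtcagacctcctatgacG
Amd2: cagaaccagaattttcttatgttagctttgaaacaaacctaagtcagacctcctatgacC

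Both transcripts also carry the same short upstream reading frame, known from work on this enzyme for stalling ribosomes when polyamines are plentiful. It is 21 bases long with 6 codons before its stop, and its start and stop codons are in capitals.
Upstream frame of Amd1 and Amd2: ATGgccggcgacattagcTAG

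Shared stretches of 50 bases made up 52.2% of the Oaz1 transcript, 42.2% of Odc1, 28.7% of Sms, 28.1% of Paox, 12.0% of Oaz2, 7.28% of Sat1 and 2.40% of Srm. Smox and Azin1 shared none. By this check the Smox and Azin1 rows do not carry this uncertainty, and the rows of Amd1, Oaz1, Odc1, Sms and Paox do. The check compared exact stretches of the longest coding transcript with annotated transcripts, and inexact or unannotated copies were not searched.

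In MyoCre quadriceps, Smox and Amd1 were the most abundant of the 10, at 331 ± 29.9 and 269 ± 66.5 FPKM (SD, n = 3 each), and their ranges overlapped. Smox stood above 99.4%, 99.4% and 99.2% of all rows in MyoCre 1 to 3. Odc1 at 101 ± 11.7 FPKM and Oaz2 at 88.4 ± 0.201 FPKM came next, and they overlapped too. Below them the order was Oaz1 (40.4 ± 2.78 FPKM), Sms (31.9 ± 1.73), Azin1 (16.8 ± 1.44), Sat1 (12.3 ± 1.39), Srm (5.95 ± 0.638) and Paox (0.831 ± 0.0677), with no overlap between neighbours from Oaz2 down. The order is one of levels per length. In K15SKO, Smox, Oaz2, Amd1 and Odc1 overlapped as neighbours, and Oaz2, at 101 ± 4.74 FPKM, had a mean next to that of Amd1. Srm and Paox were again the lowest.

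**Figure D1:**
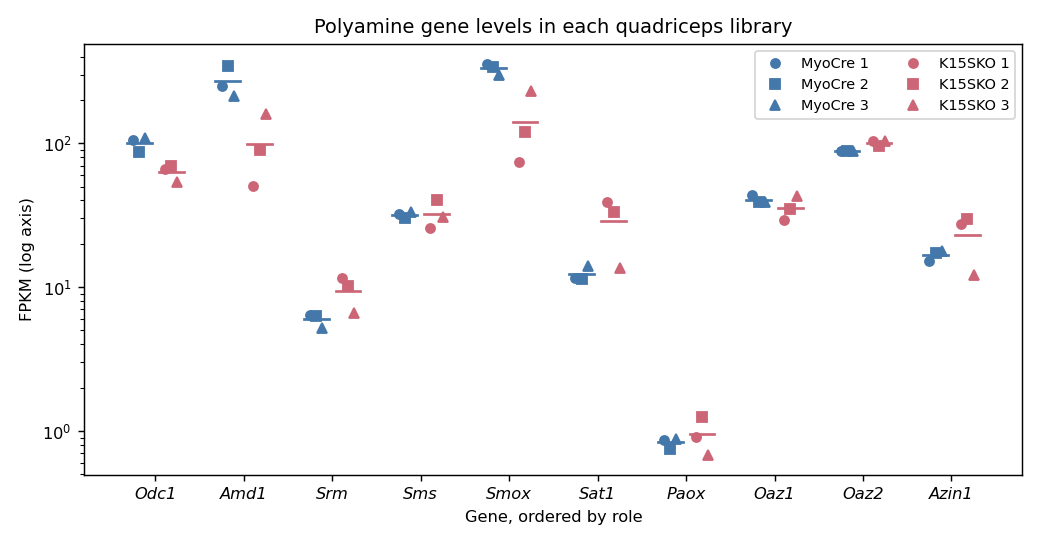
FPKM on a log axis of the 10 polyamine genes in 3 MyoCre libraries (blue) and 3 K15SKO libraries (red), with a symbol for each library and a bar at each group's mean. Smox, Amd1 and Odc1 are lower in all 3 K15SKO libraries, Srm and Oaz2 are higher in all 3, and the other 5 genes overlap.

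The question put to these groups was how quadriceps transcripts respond to loss of Klf15 from muscle. The polyamine genes did not all stand on the same side. Smox, Amd1 and Odc1 were lower in all 3 K15SKO libraries, to 42.7%, 37.0% and 62.4% of the MyoCre mean. Srm and Oaz2 were higher in all 3, at 158% and 114% of it, and Sat1, Azin1, Sms, Oaz1 and Paox overlapped between the groups. Over the 11607 genes tested, 11.3% had every K15SKO library below every MyoCre library and 13.4% had every one above.

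Genes with a mean of at least 1 FPKM were tested with limma on log2(FPKM + 1), a scale that understates the change of low genes, and p-values were adjusted over all of them (Benjamini-Hochberg, threshold 0.05). Paox, at a mean of 0.888 FPKM over the 6 libraries, was below that level, so 9 of the 10 were tested. Calls were counted over the 7 tested members other than Smox and Amd1. None of the 7 passed the threshold, and 0.0517% of all genes tested did, 6 in number (0.0172% higher and 0.0345% lower). At an unadjusted p under 0.05 limma called 3 of the 7, Odc1 lower and Sat1 and Srm higher, beside 16.5% of all genes tested (8.43% higher and 8.12% lower). Nothing is read from that count, since the genes were chosen with this comparison in view. For the 7, limma adjusted p ran from 0.251 for Odc1 to 0.994 for Sms. The median log2 difference of the 9 was −0.0026, the value of Sms, beside −0.02 over all genes tested, with members on both sides. That median includes Smox and Amd1, which were chosen as lower. Among the 7 others the middle value was 0.19, that of Oaz2.

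Gene spans are those of GENCODE M21 on GRCm38. Smox (ENSMUSG00000027333.18, chr2:131491496-131525922, plus strand), the spermine oxidase, was at 358, 337 and 299 FPKM in MyoCre 1 to 3, against 73.9, 120 and 231 FPKM in K15SKO 1 to 3. Every K15SKO library was below every MyoCre library, with K15SKO 3 the nearest. These values were 22.3%, 36.1% and 69.6% of the MyoCre mean, and the log2 difference was −1.37 (SE 0.39). It was −1.80 without K15SKO 3, −1.33 without K15SKO 2 and −0.99 without K15SKO 1. Of the knockout libraries, Klf15 was highest in K15SKO 2, at 21.7 FPKM, and Smox was highest in K15SKO 3. K15SKO 2 was also the library with the most liver transcript, and which cells its Klf15 transcript came from was not tested. Among the fibre markers, the glycogen phosphorylase gene Pygm, at 39.7%, 48.6% and 99.3% of its MyoCre mean, stood in the same library order as Smox. So did Actn3, of fast fibre Z-discs, at 41.6%, 61.1% and 105%, and Tnnc2, Ryr1 and Cacna1s. The rest of the list did not. Des, at 211%, 179% and 128% of its MyoCre mean, had the reverse order. Myh2, at 606%, 232% and 443%, and Mylpf, at 84.5%, 77.9% and 110%, were lowest in K15SKO 2. The part of fibre composition in the levels of Smox and Amd1 was not tested.

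Amd1 (ENSMUSG00000075232.4, chr10:40287458-40302186, minus strand), which makes the aminopropyl donor, was at 250, 343 and 214 FPKM in MyoCre 1 to 3, against 50.3, 89.0 and 159 FPKM in K15SKO 1 to 3. The groups did not overlap, and the knockout libraries stood in the same order as for Smox. The values were 18.7%, 33.1% and 59.2% of the MyoCre mean, with a log2 difference of −1.55 (SE 0.42), and it was −1.96 without K15SKO 3, −1.55 without K15SKO 2 and −1.14 without K15SKO 1. Its copy Amd2 was at 34.1, 47.9 and 29.2 FPKM in MyoCre and 5.97, 11.3 and 21.1 FPKM in K15SKO. The ratio of Amd1 to Amd2 was 7.16 to 7.34 in MyoCre and 7.55 to 8.43 in K15SKO. A pseudogene row, Amd-ps3, had the same order, at 81.8, 99.6 and 69.0 FPKM in MyoCre and 14.9, 26.7 and 49.4 FPKM in K15SKO. Reads of the 3 rows may have been split between them, so the share of each is uncertain. The 3 rows added together stood at 18.3%, 32.6% and 59.0% of their MyoCre mean in K15SKO 1 to 3, close to the values of Amd1 alone.

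**Figure D2:**
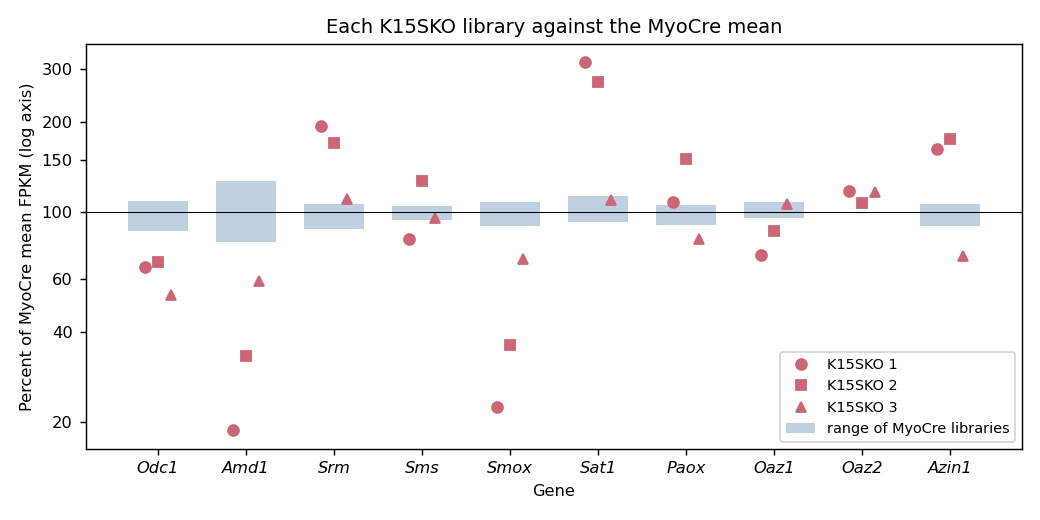
Each K15SKO library as a percentage of the MyoCre mean FPKM (log axis), with the range of the 3 MyoCre libraries as a blue band for each gene (for Oaz2 too narrow to see). K15SKO 3 lies nearer to the band than K15SKO 1 and 2 for Smox, Amd1, Srm and Sat1, and for Odc1 it is the lowest, at 53.1%.

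Odc1 (ENSMUSG00000011179.7, chr12:17544794-17551505, plus strand), the enzyme that commits ornithine to the pathway, was at 105, 87.4 and 109 FPKM in MyoCre 1 to 3, against 66.1, 68.9 and 53.5 FPKM in K15SKO 1 to 3. All 3 knockout libraries were low, and here K15SKO 3 was the lowest. The log2 difference was −0.67 (SE 0.15, limma adjusted p = 0.251), and it was −0.74 without K15SKO 2 and −0.56 without K15SKO 3. Gm7993, the row that shares most with it, was at 17.8 to 23.2 FPKM in MyoCre and 10.4 to 13.6 FPKM in K15SKO, and the ratio of Odc1 to it was 4.58 to 4.92 and 5.08 to 5.17.

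The aminopropyl transferases, which use what Amd1 makes, differed from it in level and in direction. Srm (chr4:148591503-148594993, plus strand), spermidine synthase, was at 6.37, 6.27 and 5.22 FPKM in MyoCre 1 to 3, against 11.5, 10.2 and 6.59 FPKM in K15SKO 1 to 3. K15SKO 1 and 2 stood clear of MyoCre, and K15SKO 3 was just above its highest library (log2 difference 0.56, SE 0.20, limma adjusted p = 0.282). It was 0.49 without K15SKO 2 and 0.77 without K15SKO 3. The ratio of Amd1 to Srm was 39.2 to 54.7 in MyoCre and 4.36, 8.76 and 24.2 in K15SKO 1 to 3. Sms (chrX:157443855-157492287, minus strand), spermine synthase, was at 32.1, 30.0 and 33.4 FPKM in MyoCre and 25.9, 40.5 and 30.5 FPKM in K15SKO 1 to 3. The groups overlapped, with K15SKO 1 below MyoCre and K15SKO 2 above it, and the log2 difference was −0.0026 (SE 0.17). It was −0.17 without K15SKO 2 and 0.14 without K15SKO 1, on opposite sides of 0. Sms-ps, which shares 28.7% of the 50-base stretches of Sms, was listed higher than Sms itself, at 69.8 to 78.8 FPKM in MyoCre and 102, 121 and 69.4 FPKM in K15SKO 1 to 3. Both rows together were at 105 ± 6.51 FPKM in MyoCre and 130 ± 31.1 FPKM in K15SKO (SD, n = 3 each).

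On the breakdown side, Sat1 (chrX:155213132-155216449, minus strand), the acetyltransferase that marks polyamines for export or oxidation, was at 11.7, 11.4 and 13.9 FPKM in MyoCre 1 to 3, against 39.1, 33.5 and 13.6 FPKM in K15SKO 1 to 3. K15SKO 1 and 2 were high and K15SKO 3 lay within the MyoCre range, so the groups overlapped (log2 difference 1.03, SE 0.37, limma adjusted p = 0.283). The difference was 0.86 without K15SKO 2, the library with the most liver transcript, and 1.48 without K15SKO 3. The ratio of Smox to Sat1 was 21.4 to 30.7 in MyoCre and 1.89, 3.57 and 17.0 in K15SKO 1 to 3. Paox (chr7:140115799-140137224, plus strand), which oxidises the acetylated forms, was at 0.754 to 0.881 FPKM in MyoCre, against 0.901, 1.26 and 0.678 FPKM in K15SKO 1 to 3. It was below 1 FPKM in 5 of the 6 libraries, and it shares 27.3% of its 50-base stretches with Gm19680.

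Among the regulators of ornithine decarboxylase, Oaz2 (chr9:65668001-65690300, plus strand) was slightly higher in each knockout library, at 88.2, 88.6 and 88.2 FPKM in MyoCre 1 to 3 and 104, 95.3 and 103 FPKM in K15SKO 1 to 3. The groups did not overlap, and the log2 difference was 0.19 (SE 0.10, limma adjusted p = 0.360). Oaz1 (chr10:80826656-80829290, plus strand), the other ubiquitous antizyme, was at 43.6, 38.8 and 38.9 FPKM in MyoCre and 29.0, 35.0 and 43.0 FPKM in K15SKO 1 to 3, which overlapped (log2 difference −0.19, SE 0.16, limma adjusted p = 0.503, and −0.06 without K15SKO 1). The row of its processed pseudogene Oaz1-ps was 7.35 to 9.98 times as high in every library, at 285 to 340 FPKM in MyoCre and 257 to 329 FPKM in K15SKO. With both rows added, the level was 350.3 ± 30.3 FPKM in MyoCre and 328 ± 40.4 FPKM in K15SKO (SD, n = 3 each). The rank of Oaz1 among the 10 therefore depends on how reads were assigned between these rows.

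Azin1 (chr15:38487427-38519266, minus strand) was at 15.2, 17.4 and 17.9 FPKM in MyoCre 1 to 3, against 27.3, 29.6 and 12.0 FPKM in K15SKO 1 to 3. K15SKO 1 and 2 stood above MyoCre and K15SKO 3 below it, and the log2 difference was 0.34 (SE 0.33, limma adjusted p = 0.558). It was 0.11 without K15SKO 2 and 0.73 without K15SKO 3. The ratio of Odc1 to its catalytically inactive homologue Azin1 was 5.03 to 6.94 in MyoCre and 2.42, 2.33 and 4.44 in K15SKO 1 to 3. The ratio of Odc1 to Oaz1 and Oaz2 added together was 0.69 to 0.86 in MyoCre and 0.37 to 0.53 in K15SKO, lower in 3 of 3 libraries. It leaves out Oaz1-ps, so its size depends on how reads were assigned between Oaz1 and that row.

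Sat1, Azin1 and Srm thus shared a pattern, high in K15SKO 1 and 2 and lower in K15SKO 3. The macrophage markers had it too: Cd68, a lysosomal protein of macrophages, was at 43.8 and 43.6 FPKM in K15SKO 1 and 2, against 1.24 FPKM in K15SKO 3 and 0.895 to 1.45 FPKM in MyoCre. All K15SKO libraries were above all MyoCre libraries for 0 of the 8 macrophage markers, and 0 of the 8 was at 0 in any library. The 4 fibroblast markers, none at 0 in any library, summed to 245 FPKM in K15SKO 1 and to 141 to 177 FPKM in the other 5, and they went different ways. The collagen genes Col1a1 (55.6, 19.6 and 5.89 FPKM in K15SKO 1 to 3) and Col3a1 (96.8, 56.5 and 12.0 FPKM) were high in K15SKO 1 and 2, against at most 6.85 and 14.8 FPKM in MyoCre. Dcn and Pdgfra were lower in all 3 K15SKO libraries. The 6 adipocyte markers, by contrast, were lower in all 3 K15SKO libraries, with sums of 29.4 to 53.2 FPKM against 171 to 479 FPKM. The part of other cell types in the levels of these genes was not tested. The labels hold nothing against K15SKO 3, but without it limma called 4 of the same 7 members: Odc1 lower, and Sat1, Srm and Azin1 higher. In that fit 23.6% of all genes were called, 12.8% lower and 10.8% higher. The limma adjusted p was then 0.0063 for Sat1, 0.0144 for Azin1, 0.0159 for Srm and 0.0308 for Odc1. Over all 14 alternatives it reached 0.581 for Sat1, Srm and Odc1 and 0.882 for Azin1, and none of the 4 was under the threshold in another alternative.

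**Figure D3:**
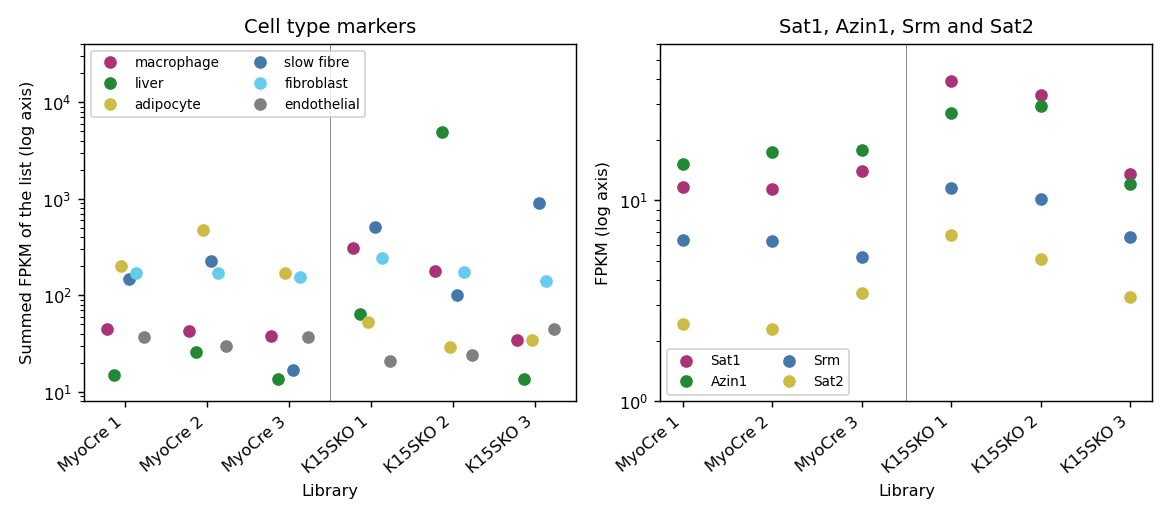
Left, summed FPKM (log axis) of cell type markers in each library; right, FPKM (log axis) of Sat1, Azin1, Srm and Sat2. Macrophage markers are high in K15SKO 1 and 2 (312 and 178 FPKM) and at 34.4 FPKM in K15SKO 3, and Sat1 is at 39.1, 33.5 and 13.6 FPKM there.

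The genes whose profile over the 6 libraries was most like that of Smox were ranked by the root-mean-square difference between log2(FPKM + 1) values centred on each gene's mean, as a description. The nearest 5 were Fbp2, the muscle fructose-bisphosphatase (0.148), Kcnab1, a potassium channel beta subunit (0.153), Gpcpd1, a glycerophosphocholine phosphodiesterase (0.196), Amd1 (0.200) and Itpr1, an inositol trisphosphate receptor (0.202). For Amd1 they were Amd2 (0.0225), Smox (0.200), Kcnab1 (0.228), Fbp2 (0.241) and Itpr1 (0.259). Smox and Amd1 were on each other's list. Both were chosen as lower in these same K15SKO libraries, so nothing is read from their nearness. Klf15 was at 0.913 from Smox and 0.882 from Amd1, on a distance that also counts the size of a change. Fbp2 was at 40.4, 38.8 and 40.1 FPKM in MyoCre 1 to 3, against 8.35, 13.5 and 21.6 FPKM in K15SKO 1 to 3. Kcnab1 was at 4.07, 4.72 and 4.78 FPKM and at 0.270, 1.20 and 2.49 FPKM. In each of these genes K15SKO 1 was the lowest and K15SKO 3 the highest of the knockout libraries. That order follows from how the genes were picked and is no separate result.

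**Figure D4:**
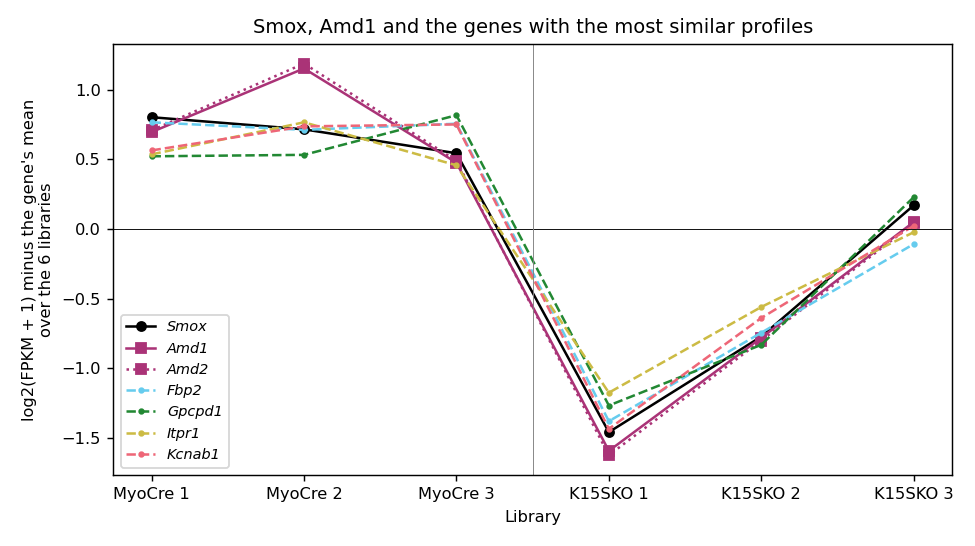
log2(FPKM + 1) of Smox, Amd1, Amd2, Fbp2, Gpcpd1, Itpr1 and Kcnab1 in each library, minus the gene's mean over the 6 libraries; lines only join the points of a gene. Amd2 lies on Amd1, at a root-mean-square difference of 0.0225, and all 7 genes are lowest in K15SKO 1. The genes beside Smox and Amd1 were picked for profiles like theirs, so a shared order follows from the choice.

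The wider pathway was followed with 28 genes in 6 lists by role, of which 27 had a row. Of these, 22 were tested and 5 were below the filter. None passed the threshold over all genes, and apart from Amd2 limma adjusted p ran from 0.280 for Sat2 to 0.979 for Mat2a. At an unadjusted p under 0.05 limma called 4 of the 22, beside 16.5% of all genes: Amd2, Oat and Mtap lower and Sat2 higher. Amd2 is a near-identical copy of Amd1, whose values chose the set, so nothing is read from its call. The median log2 difference of the 22 was −0.08, beside −0.02 over all genes tested.

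Oat, ornithine aminotransferase, which links ornithine to glutamate and proline, was at 120, 117 and 143 FPKM in MyoCre 1 to 3, against 58.2, 92.4 and 103 FPKM in K15SKO 1 to 3. It was lower in 3 of 3 libraries (log2 difference −0.61, SE 0.23, limma adjusted p = 0.288). The salvage of methylthioadenosine, the by-product of both aminopropyl transferases, had 5 of 5 genes tested, with a median log2 difference of −0.30, beside −0.02 over all genes tested. Of them 2, Mtap and Adi1, were lower without overlap, as were 11.3% of all genes tested. Mtap, which cleaves it, was at 8.30, 9.17 and 9.73 FPKM in MyoCre and 5.50, 7.34 and 7.64 FPKM in K15SKO (log2 difference −0.37, SE 0.14, limma adjusted p = 0.285). Adi1, a dioxygenase late in the route, was at 68.0 to 75.8 FPKM in MyoCre and 33.5, 54.7 and 66.7 FPKM in K15SKO 1 to 3. Enoph1 and Mri1 had log2 differences of −0.30 (SE 0.13) and 0.34 (SE 0.16), on opposite sides.

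In the methionine and S-adenosylmethionine group, Mat2a and Mat2b, the synthetase subunits outside the liver, had log2 differences of −0.01 (SE 0.17) and −0.13 (SE 0.14). The liver synthetase Mat1a was at 67.1 FPKM in K15SKO 2, the library with the most liver transcript, and at 0.646 and 0.162 FPKM in K15SKO 1 and 3, against 0 to 0.0128 FPKM in MyoCre. Arg1, the liver arginase, was at 75.4 FPKM in K15SKO 2 and at 0.399 and 0.122 FPKM in K15SKO 1 and 3, against 0.026 to 0.046 FPKM in MyoCre. For Mat1a and Arg1 all K15SKO libraries were thus above all MyoCre libraries, as for 13.4% of all genes tested. Agmat had the same outlying library, at 6.97 FPKM in K15SKO 2. These 3 genes passed the filter on low values through K15SKO 2, so their inclusion among the genes tested rests on it. Ahcy, which removes S-adenosylhomocysteine, was at 3.35 to 3.88 FPKM in MyoCre, against 5.25, 17.2 and 3.60 FPKM in K15SKO 1 to 3.

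Spermidine is also the substrate for hypusine, a modified lysine of the translation factor eIF5A. Eif5a was at 277 to 305 FPKM in MyoCre, against 391, 374 and 281 FPKM in K15SKO 1 to 3, so that K15SKO 3 lay within the MyoCre range (log2 difference 0.25, SE 0.16, limma adjusted p = 0.411). The modifying enzymes Dhps and Dohh had log2 differences of −0.10 (SE 0.10) and −0.08 (SE 0.17). Among the 4 transport genes tested, Slc18b1, a vesicular polyamine carrier, was lower in 3 of 3 libraries with at most 1.28 FPKM against 1.46 to 1.94 FPKM (log2 difference −0.34, SE 0.15, limma adjusted p = 0.305). The lysosomal exporter Atp13a2 and its relative Atp13a3 had log2 differences of −0.16 (SE 0.16) and −0.22 (SE 0.18), and Slc3a2, a subunit of amino acid transporters, of −0.07 (SE 0.10). Sat2, a relative of Sat1, was at 2.43, 2.28 and 3.46 FPKM in MyoCre 1 to 3, against 6.69, 5.12 and 3.32 FPKM in K15SKO 1 to 3, the same pattern as Sat1 (log2 difference 0.67, SE 0.24, limma adjusted p = 0.280). Azin2, the second antizyme inhibitor, was at 0.992 to 1.24 FPKM in MyoCre and 0.838 to 1.47 FPKM in K15SKO. Without K15SKO 3, limma called 5 of the 22, beside 23.6% of all genes in that fit: Amd2 and Enoph1 lower, and Eif5a, Mri1 and Sat2 higher. The 5 are thus no more than the share over all genes, and the call of Amd2 is not separate from the values of Amd1 that chose the set.

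**Figure D5:**
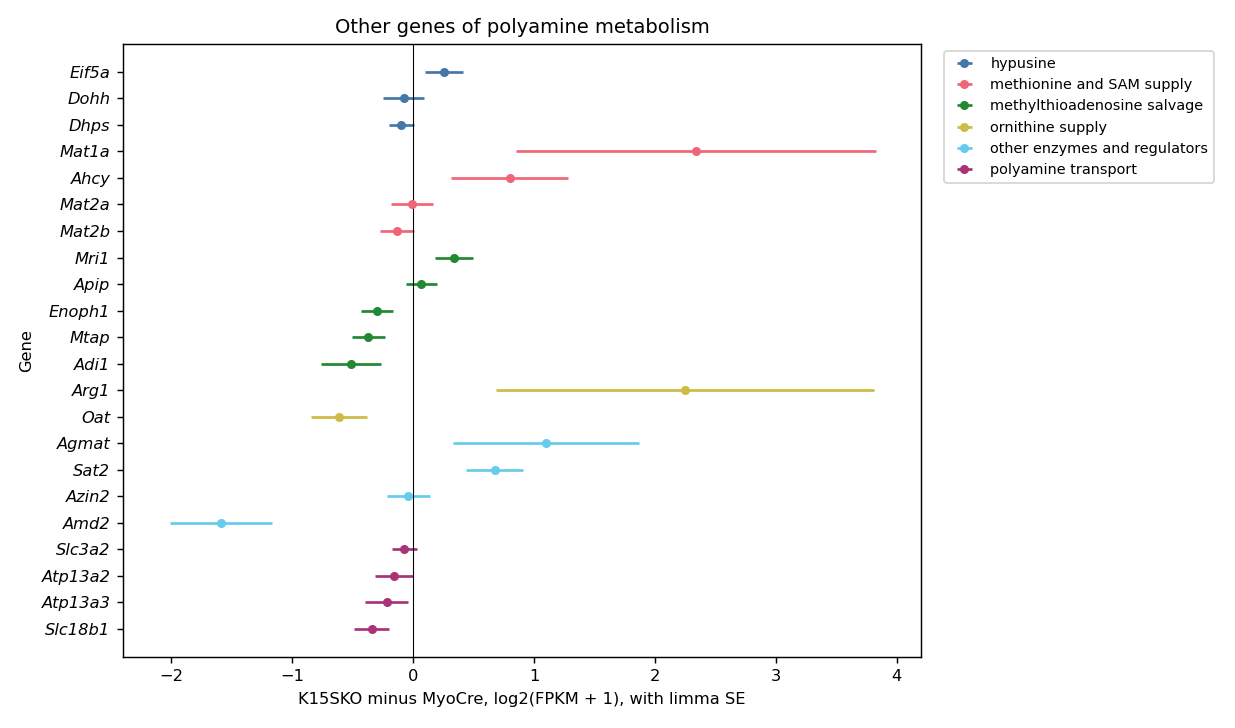
K15SKO minus MyoCre on log2(FPKM + 1) with limma's standard error for the 22 tested genes of the 6 pathway lists, coloured by list. The widest bars belong to Mat1a and Arg1 (SE 1.49 and 1.57), which were far higher in K15SKO 2 than in any other library. Amd2 has the lowest value, −1.59.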

How the data were processed

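RNA-seq libraries of 6 quadriceps samples were used, 3 of MyoCre and 3 of K15SKO, grouped by sample title. The authors deposited 1 matrix of FPKM values, made with STAR, Cufflinks and Cuffdiff on the mm10 build per the submitters' processing notes; versions, annotation and strandedness are not given in the sources used. The header names no unit; FPKM rests on those notes and on the range of the values. FPKM keeps no counts, so counting error is unknown, and reads of near-identical copies may have been divided between rows. Columns were matched by sample description, and 0 columns belonged to no sample.

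Genes with a mean of at least 1 FPKM (11607 of 23314) were tested in limma 3.58.1 (R 4.3.3) after log2(FPKM + 1) (eBayes with intensity trend, two-sided, Benjamini-Hochberg, threshold 0.05). The test was tried on simulated data for this comparison (11607 genes, MyoCre spread in both groups). It found 94 of 100 genes set to differ by 1 log2 unit and 98 of 100 set to differ by 2, and made 12 false calls. The K15SKO spread is wider, so these numbers do not say how many differences would be found in the real libraries. Named were Klf15, the 10 members, up to 4 tested genes per pathway list by smallest unadjusted p, and the 5 nearest profiles to Smox and to Amd1, without predicted, microRNA, small nucleolar and pseudogene symbols; Apip was tested and is shown in the plot, and of the listed pathway genes 5 below the filter and 1 with no row are not named. Another pathway gene, outside these counts, is not reported here. Copies that share sequence (Amd-ps3, Sms-ps, Oaz1-ps, Gm7993 and Gm19680) and the markers named singly were chosen after the data were seen. The members and lists were chosen with earlier results of these data known. Promoters came from RefSeq (GRCm38.p6) and positions and transcripts from GENCODE M21 (GRCm38, the mm10 assembly); stretches of 50 bases were compared on the transcript strand. Alternatives were quantile normalization, median-of-ratios rescaling, a pseudocount of 0.1, a stricter filter (mean of 5 FPKM), no filter, eBayes with no trend, the replicate number as a block, each library left out in turn, and, added after seeing the data, the fit without genes at 0 in a whole group. Tables used Python 3.11.15, pandas 2.3.3, numpy 2.4.6 and Biopython 1.88, and plots matplotlib 3.10.9.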

Additional observations from a re-analysis of the deposited data

How the results depend on the processing

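Of the 7 tested members other than Smox and Amd1, those past limma's threshold numbered 0 in 13 of 14 alternatives, and with each library left out they ranged from 0 to 4, the 4 being without K15SKO 3. The other pathway genes ranged from 0 to 5 in the same way, with Amd2, the copy of Amd1, among the 5. Over all genes, 6 passed; the count was 3 with no filter, 3 with the replicate block and, without genes at 0 in a whole group, 0 by limma against 1930 at an unadjusted p under 0.05. Of the 6, 4 were listed at 0 in a whole group. Leaving out each library gave 3 to 2743 genes, with 2743 without K15SKO 3 and 3 without MyoCre 1 or MyoCre 2. The median log2 difference of the tested members, with Smox and Amd1 among them, ranged from −0.17 without K15SKO 2 to 0.14 without K15SKO 1. Both of these values were those of Sms.

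Smox, Amd1, Odc1, Sat1, Srm, Oaz2, Oaz1 and Azin1 kept their direction in all 14 alternatives. Alternatives that changed only the filter, the trend, the block or the genes at 0 left these log2 differences as they were. For Smox, Amd1, Odc1, Srm and Oaz2, whose groups did not overlap, leaving out a library or changing the pseudocount cannot turn the sign. Nothing is read from the kept direction in those settings. With each library left out, Smox ranged from −1.80 to −0.99, Amd1 from −1.96 to −1.14 and Odc1 from −0.77 to −0.56. The sign turned for genes near 0: with median-of-ratios rescaling Sms was at 0.0258 and Mat2a at 0.0203, and with libraries left out Sms ranged from −0.17 to 0.14, Mat2a from −0.16 to 0.12, Dohh from −0.18 to 0.11, Slc3a2 from −0.13 to 0.0035 and Azin2 from −0.16 to 0.0506. The cause was not tested.

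The labels state no pairing. Deviations of same-numbered libraries from their group means correlated at 0.0024, 0.085 and 0.094. Each K15SKO library correlated best with the MyoCre library of its number, while MyoCre 1 correlated best with K15SKO 2, at 0.0066. With so few libraries per group, these values cannot decide whether libraries were paired. With the replicate block the members past the threshold stayed at 0, and the other pathway genes at 0. Where a library is left out, that group has 2 samples. FPKM gives no depth per gene, so how firmly low genes such as Paox were measured is unknown.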
